A study of Solanum lycopersicum with 96 samples.

Results

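Seed of the tomato cultivar Moneyberg was compared between mother plants given BABA in time window 2 (label BABA_TW2) and mother plants labelled Control. The comparison took in 24 of the 96 bisulfite libraries of the series, 12 for each group, made as 2 libraries for each of 6 replicates. Both groups are of the same cultivar, came from 6 mother plants per treatment, and had 10 seeds pooled in each DNA extraction. According to the series' design text, seed was chosen from batches whose daughter plants had been more resilient to pathogens. When the time windows fell and how the control plants were handled is not stated. The data for each group are 1 deposited list of genomic regions, to which the labels of all 12 libraries point. Every region of both lists was used, 31130 for BABA and 32856 for the control, which is 63986 of the 237372 regions in the 8 lists of the series. A BABA region without any base in the control list is called gained, a control region without any base in the BABA list is called lost, and all others were sorted by whether their limits stayed, moved, split or merged.

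BABA (beta-aminobutyric acid) is a non-protein amino acid known as a priming agent: plants treated with it respond faster or more strongly to a later pathogen. Cytosine methylation is copied through cell division in plants and can pass through seed, which makes it a candidate carrier of such a state to the next generation. In plant genomes it is densest over transposable elements and repeats, which in tomato fill the interiors of the chromosomes, while the ends are rich in genes. Bisulfite turns unmethylated cytosine into uracil and leaves methylated cytosine, so that sequencing reads show which is which.

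The lists give a chromosome, a start, an end and a whole-number score for each region, under names beginning with HYPO, and no level of methylation. Gained and lost therefore describe listing only, not a rise or fall of methylation. The sources used here do not say what the score counts. Of 17043 regions with the same start and end in both lists, 93.5% also had the same score, and the largest difference among the others was 43. The score is used here to rank regions and to set a common lowest value. Since each group is a single list, differences between them have no replicate error and could not be tested. Wilson intervals at 95% are given for shares of regions and cover counting over regions, not differences between plants.

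The BABA list held fewer and longer regions over nearly the same length of sequence. It covered 452 Mb in regions with a median of 10.2 kb, and the control list covered 451 Mb with a median of 9.63 kb. These are 56.0% and 55.8% of the 12 chromosomes up to their last listed base. The lowest score was 69 under BABA and 65 in the control, and 557 control regions lay below 69. The median score was 162 under BABA and 154 in the control. Bases found in both lists made up 93.4% of the bases found in either.

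The largest class was of regions identical in position. Regions with the same limits in both lists made up 54.7% of the BABA list and 51.9% of the control list. A further 5915 regions had 1 moved limit and 991 had both moved. Control regions split into pieces numbered 1241, and in 2103 places 2 or more control regions were joined into 1 BABA region. Another 727 places linked several regions of each list, 1594 of BABA and 1675 of the control. The remaining regions were gained or lost whole.

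Gained regions numbered 906, which is 2.91% of the BABA list (2.73% to 3.10%). Lost regions numbered 1516, or 4.61% of the control list (4.39% to 4.85%). Both kinds were short. The gained regions had a median length of 6.39 kb and a median score of 87, against 10.4 kb and 167 for BABA regions that touched the control list. The lost regions had medians of 5.06 kb and 70, against 10.05 kb and 161 for control regions that touched the BABA list. Among regions of 15 kb and more, 5 of 9960 were gained and 3 of 9755 were lost, while of those between 4 and 6 kb 6.02% were gained and 12.97% were lost. In score per kb the gained regions had a median of 14.0 and the lost regions 14.6, below the 16.1 of touching regions in both lists.

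Most lost regions stood at the lowest scores of the control list, where the BABA list has no regions or very few. Of the 557 control regions with scores of 65 to 68, 452 were lost (81.1%, 77.7% to 84.2%). The share did not drop to a steady level at 69, the lowest BABA score. It was 76.4% at a score of 68 and 70.8% at 69, then 48.2% at 70, 20.7% at 71 and 10.2% at 72. The BABA list held only 15 regions at a score of 69 and 119 at 70, against 312 and 338 in the control, and came close to the control at 72, with 281 against 294. The lower limit of the BABA list is thus a slope over 69 to 71 rather than a step. Gained shares at the same scores were 0 of 15 at 69, 5.88% at 70, 11.4% at 71 and 7.12% at 72.

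The balance between gained and lost regions followed this limit. With both lists held to a score of 69 or more, 960 regions were gained (3.08%, 2.90% to 3.28%) and 1064 lost (3.29%, 3.11% to 3.49%). At 70 the counts were 995 and 846, so that gained regions were the more numerous, and at 71 they were 1033 and 690. From 70 to 100 every tried minimum gave more gained than lost regions. The same turn appeared when the minimum was applied only to the regions counted and the other list was left whole, with 906 gained and 1064 lost at 69 and 906 and 843 at 70. The sign of the balance thus changed within 1 unit of score at the lower edge of the lists.

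**Figure D1:**
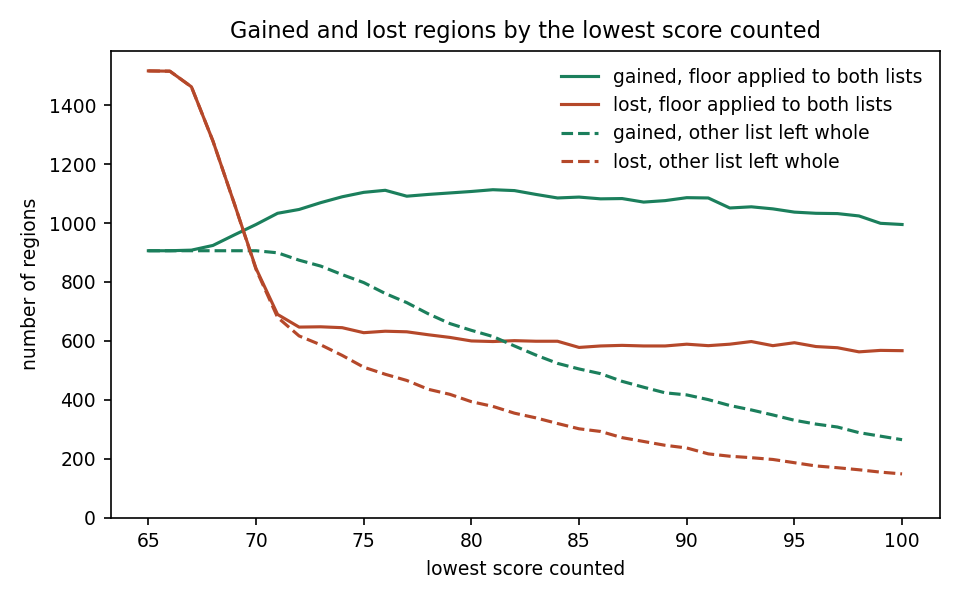
Number of gained (green) and lost (red) regions on the vertical axis against the lowest score counted on the horizontal axis, from 65 to 100. Solid lines apply the minimum to both lists and dashed lines only to the counted list. Lost regions exceed gained ones up to 69 and fall below them from 70 onwards, in both ways of counting.

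Regions with higher scores were rarely gained or lost outside chromosome 9. On the other 11 chromosomes, 7.31% of BABA regions with scores of 69 to 74 were gained, 3.95% of those from 85 to 99, 0.156% of those from 150 to 199 and 0 of 12451 at 200 or more, for which the upper Wilson bound is 0.0308%. Lost shares in the same classes were 27.8%, 2.19%, 0.101% and 0 of 12465. From 75 to 124 the gained share was above the lost share in each of 3 classes, at 7.07% against 4.72%, 3.95% against 2.19% and 2.66% against 1.43%. The Wilson intervals did not overlap, but they cover counting over regions only. With 1 list per group, this difference between the lists could not be tested. On chromosome 9 the gained shares were 25.2% for scores of 69 to 74, 31.1% for 75 to 84, 26.6% for 85 to 99, 20.6% for 100 to 124 and 2.21% at 200 or more. The lost shares there were 38.5%, 22.2%, 19.8%, 12.4% and 0 of 194.

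**Figure D2:**
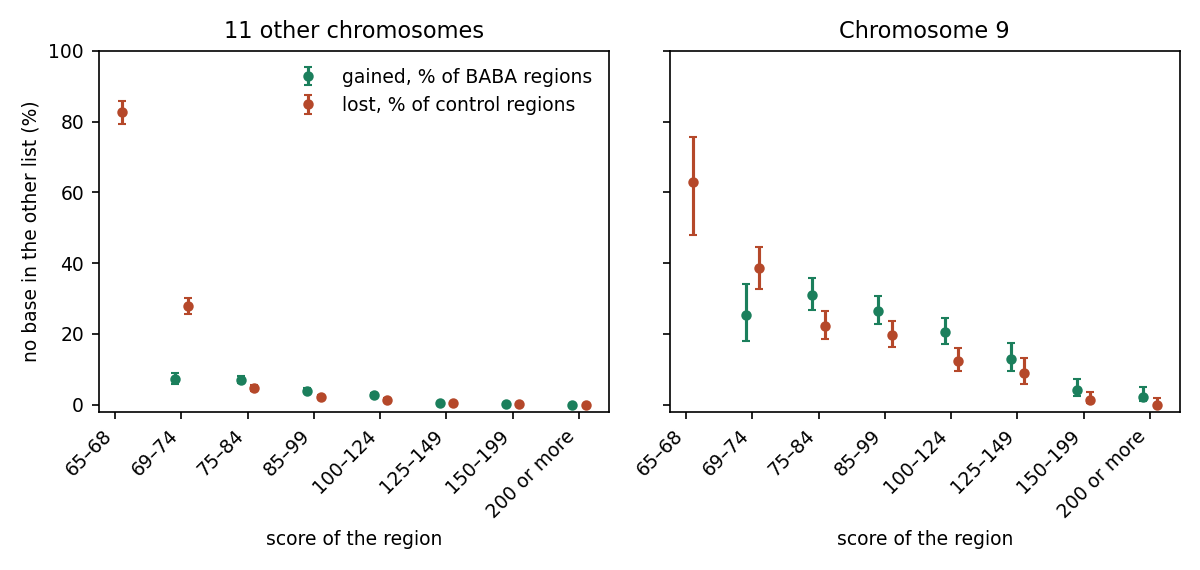
Share of regions without a base in the other list, in percent, by score class, for the 11 chromosomes other than chromosome 9 (left) and for chromosome 9 (right). Points are gained regions as a share of BABA regions (green) and lost regions as a share of control regions (red), and bars are 95% Wilson intervals. Both shares are lowest at the highest scores. At scores of 75 to 124 they are several times higher on chromosome 9, where the gained share is highest at 75 to 84.

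Chromosome 9 stood apart in its gained, lost and unmoved regions. It held 7.23% of BABA regions and 6.85% of control regions but 436 of the gained (48.1%) and 383 of the lost regions (25.3%). There 19.4% of BABA regions were gained (17.8% to 21.1%) and 17.0% of control regions lost (15.5% to 18.6%). On the other chromosomes gained shares ran from 1.04% on chromosome 7 to 2.38% on chromosome 11, and lost shares from 2.95% on chromosome 10 to 4.29% on chromosome 1. Chromosome 9 was also the only one with more gained than lost regions, and this held with scores of 69 or more in both lists, at 449 against 356. At 70 or more the other chromosomes together also had more gained than lost regions, 534 against 507. Single chromosomes were not counted at that minimum. On chromosome 9 only 20.5% of control regions kept both limits, against 49.2% to 59.1% elsewhere. It was also the most thinly listed chromosome, at 24.96% of its length under BABA and 23.2% in the control, against 45.2% to 68.3% on the others, and its regions were shorter, with medians of 7.17 and 6.72 kb. The part that thin listing has in these shares was not tested. Within each score class from 69 to 199 both shares were above those of the other chromosomes, with Wilson intervals that did not overlap. The exception was the lost share at scores of 65 to 68, which was 62.8% on chromosome 9 and 82.7% elsewhere.

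Without chromosome 9, 470 regions were gained (1.63%, 1.49% to 1.78%) and 1133 lost (3.7%, 3.50% to 3.92%). With scores of 69 or more in both lists and without chromosome 9, the counts were 511 (1.77%, 1.62% to 1.93%) and 708 (2.35%, 2.19% to 2.53%). Here too the order had turned at 70, with 534 gained and 507 lost, and at 71 the counts were 561 and 371.

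**Figure D3:**
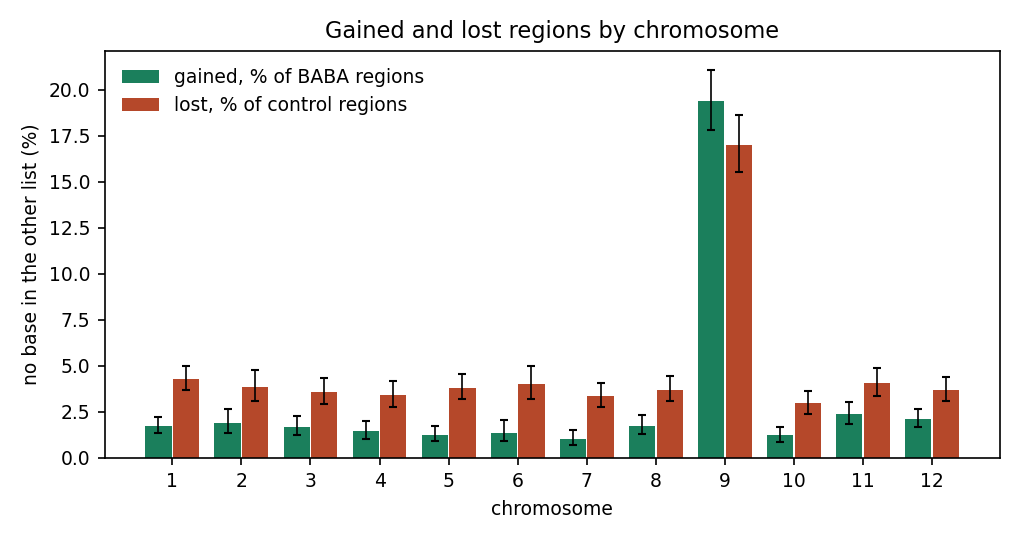
Gained regions as a percentage of BABA regions (green) and lost regions as a percentage of control regions (red) for each of the 12 chromosomes, with 95% Wilson intervals. Chromosome 9 reaches 19.4% and 17.0%, and the other 11 stay at or below 4.29%.

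Measured in bases, the whole lists differed by similar amounts on both sides. BABA alone listed 16.1 Mb and the control alone 14.9 Mb. Without a lowest score, the difference of 1.25 Mb in favour of BABA came from chromosome 9, where BABA alone had 5.36 Mb and the control alone 4.08 Mb, while the other 11 chromosomes together had 10.8 Mb on each side. Chromosome 1 went furthest the other way, with 1.23 Mb for BABA alone and 1.67 Mb for the control alone. More bases were listed under BABA alone on 7 chromosomes and in the control alone on 5. This near balance held for the whole lists only. At scores of 69 or more in both, BABA alone had 16.6 Mb and the control alone 12.9 Mb, and at 71 or more 17.2 and 11.1 Mb. At 69 or more without chromosome 9 the values were 11.1 and 8.91 Mb. A minimum of 69 takes out 557 control regions and 0 BABA regions. By construction it can only shift the balance towards BABA, so no surplus outside chromosome 9 is read from it.

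The bases in only 1 list had different origins on each side. Of those under BABA alone, 37.1% lay in gained regions, 54.6% at outer limits that reached further than in the control and 8.26% in gaps between control regions. Of those in the control alone, 53.7% lay in lost regions, 40.4% at outer limits and 5.85% in gaps between BABA regions. Outside chromosome 9 the contrast was wider, with 26.5% in gained regions and 62.8% at limits on the BABA side, and 51.8% in lost regions and 41.3% at limits on the control side. On chromosome 9 both sides were alike, at 58.4% in gained and 58.8% in lost regions.

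**Figure D4:**
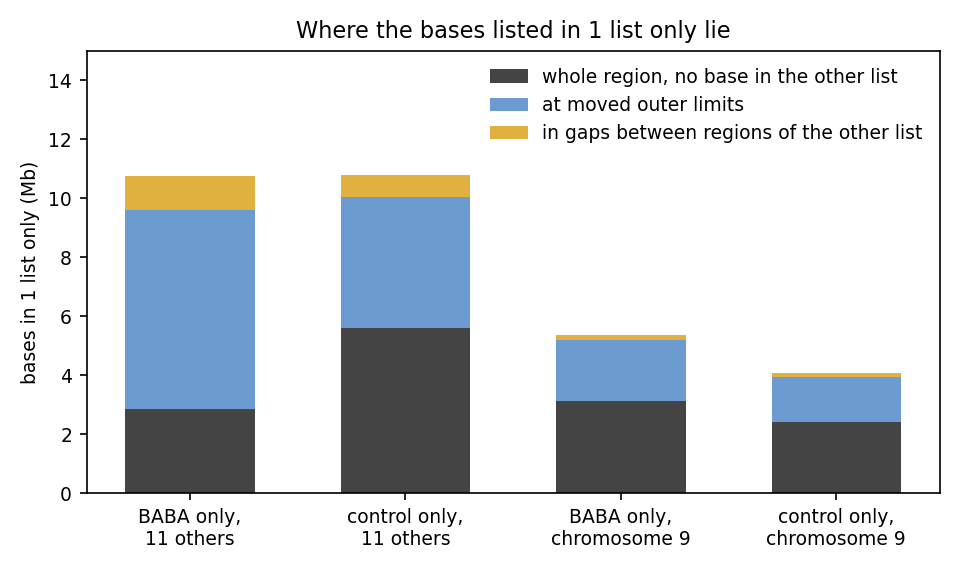
Bases listed in only 1 of the lists, in Mb, divided into whole gained or lost regions (dark), outer limits of regions present in both lists (blue) and gaps between regions of the other list (yellow). On the 11 chromosomes other than chromosome 9 the totals are 10.8 Mb on each side, with 6.76 Mb at limits under BABA and 4.47 Mb in the control.

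Where a region was present once in each list, its limits stayed or moved outwards under BABA more often than inwards. Of 47898 such limits, 83.5% were at the same base. Of the 7897 that moved, 4504 (57.0%, 55.9% to 58.1%) lay further out under BABA and 3393 further in, with median moves of 771 and 541 bases. Left and right limits gave nearly the same share, at 57.2% and 56.9%. Outward moves were the more numerous on all 12 chromosomes, from 52.5% on chromosome 1 to 60.6% on chromosome 11. Moves under 200 bases were nearly balanced, with 476 outward and 430 inward below 50 bases, 269 and 276 from 50 to 100, and 406 and 406 from 100 to 200. The surplus came from longer moves, such as 1062 against 715 between 2 and 5 kb. Among the 991 regions with both limits moved, 289 were wider under BABA on both sides, 163 narrower on both sides and 539 displaced, 270 to the left and 269 to the right.

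On chromosome 9, 51.8% of limits were at the same base, against 85.5% on the other chromosomes, and 55.3% of the moved ones lay further out under BABA. Median moves there were 1332 bases outwards and 1147 inwards, against 664 and 458 elsewhere.

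Joins and breaks leaned the same way as the limits. Merges of control regions outnumbered splits 1.69 to 1, and merges were the more numerous on all 12 chromosomes, from 1.28 per split on chromosome 1 to 3.13 on chromosome 2. With scores of 69 or more in both lists the counts were 2074 merges and 1252 splits, and at 85 or more 1726 and 1087. The lowest-scoring piece had a median score of 117 in merges and 127 in splits. Most pieces thus lie above these minima, which therefore say little on whether the lean depends on the lower limit of the lists. The gaps concerned were narrow. Those closed in merges had a median of 152 bases and those opened in splits 166 bases, and 59.9% and 57.8% of them were shorter than 200 bases. Affected regions were long, with median lengths of 26.6 kb for the merged and 27.1 kb for the split ones. In total 2372 closed gaps held 0.887 Mb and 1337 opened gaps 0.513 Mb.

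The longest of these regions were broken or joined at narrow gaps. On chromosome 5, the control region from 10983583 to 11179729 (196 kb, score 2794) was broken under BABA by a gap of 127 bases. On chromosome 1, the region from 13045258 to 13228414 (183 kb) was broken by 198 bases, and on chromosome 10 the one from 7527937 to 7680486 (153 kb) by 79 bases. On chromosome 8, between 47387016 and 47552175, a gap of 122 bases came with a moved outer limit, and the listed length was 165 kb under BABA and 156 kb in the control. In the other direction, a gap of 102 control bases was closed on chromosome 4 between 47741896 and 47936403 (195 kb), and 52 bases on chromosome 1 between 6606203 and 6794187 (188 kb). On chromosome 2, 4 control regions between 9678554 and 9826974 formed 1 BABA region over gaps of 188 bases in all. That stretch had a score of 7162 over 148 kb under BABA and 7161 in the control, far denser than the other long regions named here.

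Gained and lost regions were commoner towards the chromosome ends, except on chromosome 9. On the other 11 chromosomes, 4.51% of BABA regions in the first 5 Mb were gained, 1.30% of those in the interior and 5.36% of those in the last 5 Mb. Lost shares were 9.56%, 3.06% and 10.5%. Regions at the ends were shorter, with median scores of 110 and 98 under BABA against 182 in the interior. Most ends were also more thinly listed than the interiors, and the part that thin listing has in these shares was not tested. Within scores of 69 to 99 the order was the same, with gained shares of 9.93%, 4.74% and 9.16% and lost shares of 13.9%, 8.09% and 12.4%. The intervals of the ends did not overlap that of the interior for either kind. In regions with scores of 100 or more the shares were at most 1.08% in all 3 zones. There the intervals overlapped, except that the lost share of the first 5 Mb, 0.801%, was above the 0.292% of the interior.

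Chromosome 9 had the opposite pattern for gained regions. In its interior 21.0% of BABA regions were gained (19.3% to 22.9%), against 4.55% in the first 5 Mb and 5.15% in the last, where 6 and 5 regions were gained. The lost share was 17.4% in the interior and 13.4% and 13.9% at the ends, with overlapping intervals. In gained share the ends of chromosome 9 were thus close to those of the other chromosomes, and its interior was not.

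**Figure D5:**
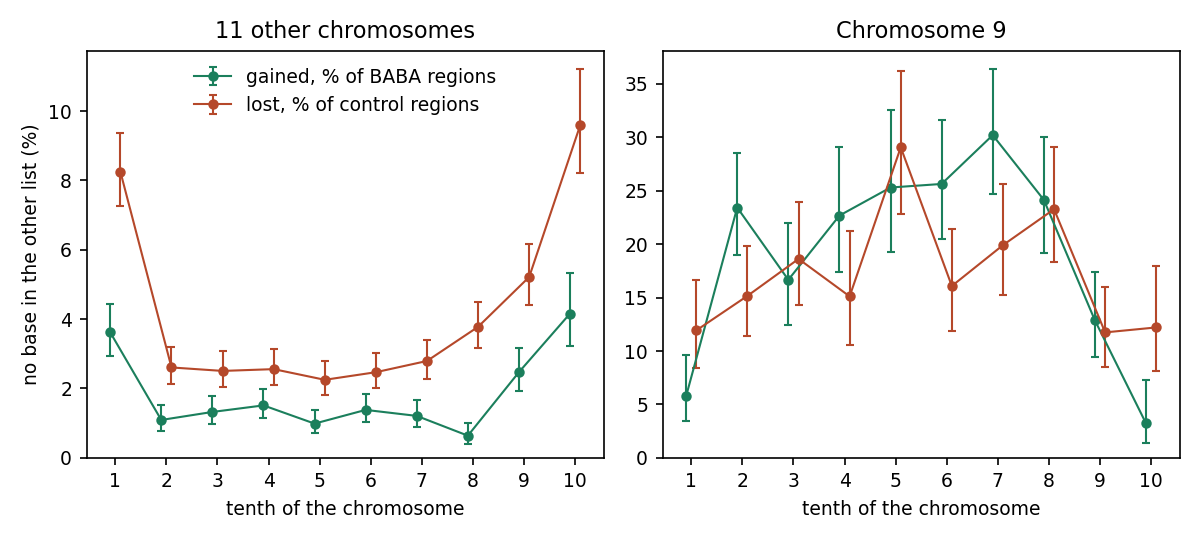
Gained regions as a percentage of BABA regions (green) and lost regions as a percentage of control regions (red) in 10 equal parts of the chromosome, for the 11 chromosomes other than chromosome 9 (left) and for chromosome 9 (right, on its own scale), with 95% Wilson intervals. Outside chromosome 9 the outermost parts are highest, at 3.62% and 4.16% gained, and on chromosome 9 gained shares reach 30.2% in part 7.

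The distance to the nearest region of the other list varied widely. Outside chromosome 9, the median distance from a gained region to the nearest control region was 2.01 kb, and 41.1% lay within 1 kb, while the median distance to the nearest other BABA region was 1.75 kb. For lost regions the median distance to the nearest BABA region was 2.68 kb and 30.4% lay within 1 kb, while that to the nearest other control region was 2.38 kb. Isolated regions, more than 20 kb from the other list, numbered 50 of 470 gained and 152 of 1133 lost. On chromosome 9 medians were 7.31 kb for gained and 6.30 kb for lost regions. How many near cases the rule of complete absence left out depended on the coverage allowed. Only 23 BABA regions and 23 control regions were covered over less than 10% by the other list, but 263 and 203 over less than 50%. Under a reciprocal overlap of 50%, the counts rose to 3353 gained and 5079 lost regions. That rule also asks that the region of the other list be covered over 50%. Pieces of merged and split regions can therefore count as gained or lost although the other list covers them. These counts are thus not numbers of near cases.

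All 10 gained regions with the highest scores were on chromosome 9. The first lay from 36971292 to 36987898 (16.6 kb, score 234). It had no base in the control list and was covered over 32.5% by the list of BABA in time window 3, 31.7% by that of Ina in time window 2 and 5.47% by that of MeJA in time window 3. Next came 41188978 to 41204309 (15.3 kb, score 203), covered over 23.6% to 39.6% by those lists and over 91.0% by the Bolstar control. At the third place, 59807955 to 59822461 (14.5 kb, score 203) and the region just before it, 59793746 to 59807894 (14.1 kb, score 202), lie side by side, both absent from the control list. A similar pair stood at 16724932 to 16736744 (score 183) and 16737098 to 16749108 (score 181). Each of the 10 shared 1 base or more with at least 1 other Moneyberg treatment list and at least 2 Bolstar lists. For the Moneyberg lists the share over all gained regions is not given here, so nothing particular to the 10 is read from that. The overlap could be slight. The region from 56219160 to 56232696 had no base in BABA of time window 3 or Ina, 28.95% in MeJA and 0.00739% in the Bolstar control. Of all 906 gained regions, the 3 Bolstar lists touched 52.8%, 59.5% and 62.8%. Of BABA regions touching the control they touched 89.4%, 92.2% and 95.1%. Those regions had higher scores, with a median of 167 against 87 for gained ones. Within scores of 69 to 99 the contrast was smaller. There the Bolstar lists touched 43.4%, 53.4% and 57.3% of gained regions and 59.4%, 71.2% and 83.5% of those touching the control.

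The 5 leading gained regions outside chromosome 9 had lengths from 3.86 to 13.6 kb, and the 10 on chromosome 9 from 8.74 to 16.6 kb. A region on chromosome 1 from 18869261 to 18873122 (3.86 kb, score 169) and one on chromosome 12 from 16079179 to 16087710 (8.53 kb, score 158) were absent from the Moneyberg control list and covered in full by the other 3 Moneyberg treatment lists and the Bolstar control. Another on chromosome 12, from 17373399 to 17379380 (5.98 kb, score 160), was covered in full by all 3 Bolstar lists and over 58.8% by BABA in time window 3 and 64.1% by Ina, with no base in MeJA. The remaining named ones were on chromosome 4 from 13518862 to 13531138 (12.3 kb, score 152) and on chromosome 12 from 56855249 to 56868873 (13.6 kb, score 151).

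Of the 10 lost regions with the highest scores, 5 were on chromosome 9, led by 32059211 to 32078041 (18.8 kb, score 185). The other Moneyberg treatments covered it over 42.4% to 76.3%. The next 3 were on chromosome 5. That from 38308616 to 38320921 (12.3 kb, score 179) was covered in full by all 3 Bolstar lists, but over 25.1%, 51.7% and 73.8% by BABA in time window 3, Ina and MeJA. That from 14029864 to 14040816 (10.95 kb, score 171) had the same full coverage in Bolstar and 31.2% to 65.4% in the other Moneyberg treatments. The third, from 35003205 to 35015856 (12.7 kb, score 167), was covered in full by Ina and MeJA and in part by BABA in time window 3. The last 2 outside chromosome 9 were on chromosome 3 from 43068435 to 43082523 (score 154) and on chromosome 11 from 41652089 to 41662784 (score 145). All 10 shared 1 base or more with at least 1 of the other treatment lists, and the share over all lost regions is not given here.

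The strongest changes in length affected regions kept in both lists. On chromosome 11, a region from 26182228 to 26207632 measured 25.4 kb under BABA and 8.25 kb in the control, and the other 3 treatments covered the wider span over at least 84.7%. On chromosome 2, from 31680735 to 31700073, the lengths were 19.3 and 6.06 kb, and on chromosome 4, from 17866776 to 17907700, they were 40.9 and 26.7 kb. In the other direction, a region on chromosome 1 from 40480821 to 40503996 measured 8.76 kb under BABA and 23.2 kb in the control, with 82.9% to 99.4% of the span covered in the other treatments. On chromosome 3, from 32087672 to 32111103, the lengths were 12.04 and 23.4 kb. Of the 10 regions named by this rule, 5 were on chromosome 9.

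The same counts for the other Moneyberg treatments are set beside these, with the reminder that all 4 share the control list. Merges per split against the control were 1.69 for BABA in time window 2, 1.66 for BABA in time window 3, 1.59 for Ina and 2.34 for MeJA. Moved limits lay further out in the treatment list in 57.0%, 55.4%, 55.7% and 61.9% of cases. With every Moneyberg list held to a score of 71 or more, the highest of their lowest scores, gained and lost regions numbered 1033 and 690 for BABA in time window 2, 946 and 773 for BABA in time window 3, 950 and 814 for Ina, and 991 and 971 for MeJA. These counts are not taken at like points of the lists. For MeJA 71 is its own lowest score, while the other treatment lists begin at 69, 69 and 68. BABA in time window 2 at its own lowest score of 69 gave 960 gained and 1064 lost.

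Against the other treatments, the BABA list of time window 2 leaned little or the opposite way. Merges per split were 0.995 against BABA in time window 3, 1.04 against Ina and 0.749 against MeJA, and outward shares were 51.7%, 51.5% and 44.8%. The regions that its list held alone numbered 918, 907 and 1198, and those that the other list held alone 908, 958 and 769. Jaccard indices of these pairs, bases in both lists over bases in either, were 0.937, 0.938 and 0.936, and that with the control was 0.934, or 0.938, 0.939, 0.937 and 0.939 at scores of 71 or more. The control list had the most regions and the lowest scores and the MeJA list the fewest and highest. The other 3 treatment lists lay close together in both. The lists had 32856 regions from a score of 65 in the control, 31130 from 69 in this BABA group, 31115 from 69 in BABA of time window 3, 31258 from 68 in Ina and 30041 from 71 in MeJA. With both lists at scores of 71 or more, merges per split against the control were 1.61 and 56.8% of moved limits lay further out under BABA. With a single list per group, a property of the list and an effect of treatment cannot be told apart.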

How the data were processed

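Bisulfite libraries of tomato seed DNA were made with an Ultralow Methyl-Seq kit and sequenced as read pairs, per the labels' protocols. Trim Galore is named in the submitters' processing notes. Aligner, region caller, genome build, cytosine context, pooling of libraries and read depth reached are not stated in the sources used here; the series' design text names an aim of 10-fold coverage. The authors deposited 1 list per group with 6 columns and no header, whose score column holds a whole number per region. Deposited starts were raised by 1 base, so that coordinates count from 1, and no build is assumed. Groups came from the sample titles, and lists were tied to groups by the description each library carries.

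Regions sharing 1 base or more were linked across lists in Python 3.11 with pandas 2.3.3, NumPy 2.4.6 and SciPy 1.17.1. The sorting into classes was checked on simulated intervals. Named are the 10 gained and 10 lost regions with the highest score, the first 5 of each outside chromosome 9, and 5 each of the longest splits and merges and the strongest changes in length. The gene table at hand, of assembly SLM_r2.1, ends 15.8 Mb beyond the lists on chromosome 2, so no genes were assigned and no sequence is printed. Alternatives were other lowest scores, leaving out chromosome 9, reciprocal overlap of 50%, joining regions less than 1 kb apart and a tolerance of 200 bases on limits. The comparison, its lists and its rules were chosen with earlier results of these data known.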

Additional observations from a re-analysis of the deposited data

How the results depend on the processing

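The Jaccard index was 0.951 without chromosome 9, 0.937 at scores of 69 or more in both lists, 0.955 with both restrictions, 0.939 at 71, 0.931 at 85 and 0.935 after joining regions less than 1 kb apart. Gained regions numbered 470 without chromosome 9, 511 at 69 without it and 3353 under a reciprocal overlap of 50%. Lost regions numbered 708 at 69 without chromosome 9, 690 at 71, 578 at 85 and 5079 under reciprocal overlap. Gained minus lost regions, -610 as reported, came to -104 at 69, -197 at 69 without chromosome 9 and -405 when each list was cut at its own median score. Under reciprocal overlap the difference was -1726, where pieces of merged and split regions can be counted too. The difference turned to 343 at 71 and 510 at 85, where by construction the control regions at its lowest scores are no longer counted. The medians are unlike cuts, 162 for BABA and 154 for the control. Control regions with scores between them stay while BABA regions with the same scores are taken out. By construction this shifts the balance towards lost regions, so no surplus of losses is read from -405. Joining regions less than 1 kb apart left 599 splits and 895 merges. Bases in the control alone were 8.91 Mb at 69 without chromosome 9, beside 11.1 Mb under BABA alone. At 85 they were 11.5 Mb, beside 19.1 Mb. The share of bases at moved limits, 47.8% as reported, was 52.1% without chromosome 9, 50.6% at 69, 56.5% with both, 53.0% at 71 and 52.6% at 85. The minimum of 71 was chosen after seeing the data. No paired analysis was possible because each group has 1 pooled list, and replicates could not be left out for the same reason. Apart from what is named above, the cause of these moves was not tested. Read depth behind the regions is unknown.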

Other observations

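Gained and lost regions were also looked up in the lists of the other cultivar, Bolstar, which took no part in the comparison. Among regions with scores of 85 to 99, which lie at or above the lowest score of every list, 67.5% of gained (61.3% to 73.1%, 162 of 240) and 71.9% of lost regions (64.3% to 78.4%, 110 of 153) had a base in the Bolstar control list. Of regions present in both Moneyberg lists in that class, 88.4% of those from BABA and 89.4% of those from the control did. The Bolstar BABA list of time window 2 touched 53.8% of the gained and 56.2% of the lost regions, against 79.9% and 81.5%. Its lowest score is 85, so the class lies at the lower edge of that list. The Bolstar Ina list, which begins at 71, touched 59.6% of the gained and 68.0% of the lost regions, against 90.5% and 90.7%. These shares carry Wilson intervals over regions and no replicate error. Chromosome 9 held 129 of the 240 gained and 89 of the 153 lost regions of this class. It held 485 of all 3297 BABA regions and 450 of all 3369 control regions of the class. The shares in this class were not divided by chromosome, so the contrast includes this difference in chromosome make-up.

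In bins of 1 Mb the listed share was at least 5 percentage points higher under BABA in 14 of 808 bins, all on chromosome 9, and at least 5 points lower in 1. On chromosome 9 it was higher in 46 of 73 bins, with 49.4% under BABA and 40.6% in the control from 12 to 13 Mb and 39.3% against 30.6% from 49 to 50 Mb. The lower bin lay on chromosome 1 from 52 to 53 Mb, with 81.2% under BABA and 86.8% in the control, 7 lost and 0 gained regions.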
